A study of Homo sapiens with 24 samples.

Results

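The MYC and MAX network was followed through irradiation in a human Ewing sarcoma line and in a SLFN11 knockout derivative of it. The set was named as 10 genes: MYC, MYCN and MYCL, MAX, MXD1, MXD3, MXD4, MXI1, MNT and MLX. It was chosen because MYC was lower in the knockout line in every condition, so the differences between the lines are described below without a test for MYC, and those of the other members are no support for the choice. Of these genes, 9 were measured, each by 1 probe set, among 17687 named genes, and MXD4 was not analysed here.

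The knockout cells were ES8-1F2, 1 derivative of ES8 that carries a CRISPR/Cas9 knockout of SLFN11, and the cells they were set against were parental ES8. Both lines were grown in DMEM/F12 with fetal bovine serum, were given a 2 Gy or 0 Gy dose of gamma rays and were collected after 4 h or 24 h, which gave 8 groups of 3 Affymetrix whole-transcript arrays. With 1 derivative line, the loss of SLFN11 and any other difference between these 2 lines cannot be told apart. Whether the 3 replicates came from separate cultures is not stated, and the p-values then measure only the spread between arrays, which may be technical. All values are deposited log2 signals, and in RNA from whole cultures fewer cells of a type and less RNA per cell cannot be told apart.

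MYC, MYCN and MYCL are transcription factors that bind DNA as dimers with MAX and raise the expression of genes for growth, nucleotide and amino acid supply, ribosome production and cell cycle entry. MXD1, MXD3, MXD4, MXI1 and MNT also dimerise with MAX, occupy the same sites and recruit SIN3 corepressors, so that they oppose MYC. MLX is the parallel partner of MLXIP and MLXIPL, which sense glucose metabolites, and it can also pair with some MXD proteins and with MNT. In Ewing sarcoma, a tumour of bone and soft tissue driven by EWSR1 fusion genes, MYC is commonly expressed.

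SLFN11 is a helicase-related protein that is recruited to stalled replication forks and raises sensitivity to DNA-damaging agents. Its signal lay between 6.33 and 7.07 on the 12 knockout arrays, against 8.03 to 8.63 on the 12 parental arrays, and the difference was -1.46, -1.38, -1.53 and -1.51 (SE 0.13) at 0 Gy and 4 h, 0 Gy and 24 h, 2 Gy and 4 h, and 2 Gy and 24 h. The sources used here do not give where its probes lie relative to the edited site. The background level, taken as the 95th percentile over 612 negative controls, was 3.46 to 3.81 per array. All 9 measured Ewing sarcoma markers were above it on every array, including CD99 and NKX2-2; NR0B1 and XG were not analysed here. The epithelial markers CDH1, ESRP1 and GRHL2, the blood markers MS4A1 and LYZ, and the endothelial marker TEK were above it on no array. Of 8 measured markers each, 2 epithelial (KRT8 and KRT19), 1 blood (CD14) and 5 endothelial ones (VWF, TIE1, ROBO4, ESAM and CLDN5) were above it on all 24 arrays, and their part in the results was not tested. Replicate 2 of both parental 2 Gy groups had the narrowest interquartile ranges of signal, 3.28 and 3.34, in a span up to 3.62.

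The sites that MYC-MAX and MXD-MAX dimers share are E-boxes, and the canonical one reads CACGTG, which is its own reverse complement, so 1 search covers both strands. In RefSeq promoter windows of GRCh38.p14, from 250 bases before to 50 bases after a start, CACGTG was present in 7.26% of 35116 windows, and 10.8% of 14250 measured genes had it in at least 1 window. Among the measured members with a window on the chromosomes shown here, MNT and MLX held it, and MYCN, MYCL, MXD1, MXD3, the 3 windows of MXI1 and the 2 windows of MAX did not. The stretches around the MNT and MLX motifs are given below because they place members of the network beside a site that the network itself can read, with CACGTG in capitals. The MNT stretch is chr17:2401231-2401270 on the minus strand, where the motif begins 193 bases before the start, and the MLX stretch is chr17:42567033-42567072 on the plus strand, where it begins 50 bases before the start.
MNT: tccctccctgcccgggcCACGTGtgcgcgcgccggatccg
MLX: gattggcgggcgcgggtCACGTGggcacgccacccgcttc
A match is a description of these letters, and no binding was measured here.

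MYC was lower in knockout cells in all 4 conditions, by about 1 log2 unit. At 0 Gy and 4 h the 3 knockout arrays read 9.09, 9.34 and 9.02, against 10.26, 10.40 and 9.95 on the parental arrays. At 0 Gy and 24 h they read 9.04, 9.11 and 9.19 in knockout cells, against 10.28, 10.47 and 10.35 in parental cells. Every knockout array was below every parental array of its condition at both times without irradiation. With 2 Gy, the 4 h arrays read 8.86, 9.36 and 9.08 in knockout cells, against 9.99, 10.21 and 10.05 in parental cells. The 24 h arrays at 2 Gy read 9.03, 9.02 and 9.44 in knockout cells, against 10.38, 10.45 and 10.27 in parental cells. The irradiated groups did not overlap either, and over all conditions the 12 knockout arrays (8.86 to 9.44, median 9.08) lay below the 12 parental arrays (9.95 to 10.47, median 10.27).

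The knockout minus parental difference of MYC was -1.05 at 0 Gy and 4 h, -1.26 at 0 Gy and 24 h, -0.98 at 2 Gy and 4 h and -1.20 at 2 Gy and 24 h (SE 0.11 each). These are 2.07-fold, 2.39-fold, 1.98-fold and 2.30-fold lower signals in knockout cells. As the list was chosen on this contrast, the differences carry no test. For scale, 5.65% of the 17687 genes had no overlap between the 12 knockout and the 12 parental arrays, and 2.43% had every knockout array lower. Ordered from the most negative difference, MYC was gene 167, 115, 173 and 140 of 17687 in the same order of conditions. Within a line its group means were close: the 4 knockout means spanned 0.061 log2 units and the 4 parental means 0.28. The order of the 8 means was parental at 0 Gy and 24 h (10.37 ± 0.10), parental at 2 Gy and 24 h (10.37 ± 0.09), parental at 0 Gy and 4 h (10.20 ± 0.23) and parental at 2 Gy and 4 h (10.09 ± 0.11), then knockout at 2 Gy and 24 h (9.16 ± 0.24), at 0 Gy and 4 h (9.15 ± 0.17), at 0 Gy and 24 h (9.11 ± 0.07) and at 2 Gy and 4 h (9.10 ± 0.25; SD, n = 3 each). Among neighbours in that order, only the step between the lines exceeded both SDs beside it.

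**Figure D1:**
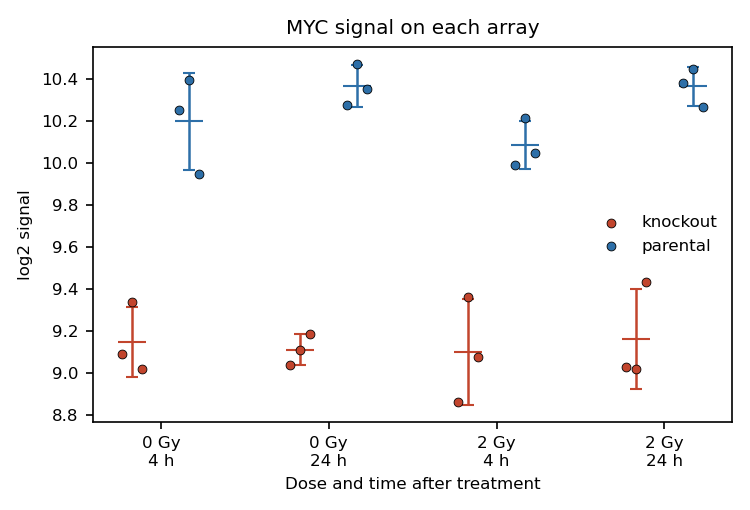
MYC log2 signal (vertical axis) on each of the 24 arrays by dose and time (horizontal axis), with knockout arrays in red left of parental arrays in blue; bars show the mean and SD of 3 arrays. The knockout arrays lie between 8.86 and 9.44 and the parental arrays between 9.95 and 10.47 in every condition.

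The other members of the activator family had smaller differences. MYCN, the paralogue known from neuroblastoma, lay near background: it was above the background level on 22 of 24 arrays, between 3.28 and 4.16 (median 3.97) in knockout cells, against 3.55 to 4.29 (median 3.95) in parental cells. Its line differences were -0.14, 0.07, -0.04 and -0.14 (SE 0.21). MYCL, the paralogue first found in lung cancer, ran between 4.36 and 5.22 (median 4.79) in knockout cells, against 4.67 to 5.39 (median 4.95) in parental cells. Its differences were 0.05 at 0 Gy and 4 h, -0.51 at 0 Gy and 24 h, -0.25 at 2 Gy and 4 h and -0.14 at 2 Gy and 24 h (SE 0.19). The ranges over 12 arrays overlapped, but at 0 Gy and 24 h and at 2 Gy and 4 h every knockout array was below the parental ones. MYCL was not called in any condition, except at 0 Gy and 24 h with the replicate number as a block or with array weights.

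MAX, the obligate partner of both the activators and the repressors, was slightly lower in knockout cells. It read 7.77, 7.76 and 7.89 in knockout cells, against 7.97, 8.06 and 8.18 in parental cells at 0 Gy and 4 h. Irradiated cells at 4 h read 7.63, 7.68 and 7.89 in the knockout line, against 8.06, 7.98 and 8.31 in the parental line. The lines did not overlap at 4 h with either dose. MAX at 0 Gy and 24 h read 7.90, 7.65 and 7.97 in knockout cells, against 7.96, 7.86 and 8.02 in parental cells. At 24 h after 2 Gy it read 7.87, 7.48 and 7.93 in knockout cells, against 8.08, 7.86 and 8.14 in parental cells. The lines overlapped at 24 h with both doses. The differences were -0.27, -0.11, -0.38 and -0.27 (SE 0.11) at 0 Gy and 4 h, 0 Gy and 24 h, 2 Gy and 4 h, and 2 Gy and 24 h, well short of those of MYC.

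MXI1 (MAD2), a repressor partner of MAX, was lower in knockout cells, in the same direction as MYC. At 0 Gy and 4 h it read 7.03, 7.27 and 7.03 in knockout cells, against 7.38, 7.52 and 7.54 in parental cells. Its 24 h arrays at 0 Gy read 7.19, 7.41 and 7.41 in knockout cells, against 7.76, 8.07 and 7.64 in parental cells. The knockout arrays were all lower at both times. MXI1 at 2 Gy and 4 h read 6.88, 7.29 and 7.19 in knockout cells, against 7.44, 7.53 and 7.42 in parental cells. At 24 h after 2 Gy it read 7.48, 7.50 and 7.18 in knockout cells, against 7.92, 7.88 and 7.90 in parental cells. Again the groups did not overlap. The differences in these 4 conditions were -0.37, -0.49, -0.35 and -0.51 (SE 0.12).

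MXD1 (MAD1), the repressor that commonly rises as cells leave the cycle and differentiate, went the other way and was higher in knockout cells. At 0 Gy and 4 h it read 5.16, 4.93 and 5.01 in knockout cells, against 4.86, 4.76 and 4.54 in parental cells. Its 24 h arrays at 0 Gy read 5.63, 5.20 and 5.64 in knockout cells, against 4.86, 4.28 and 4.63 in parental cells. The knockout arrays were all higher at both times. MXD1 at 2 Gy and 4 h read 4.96, 5.54 and 5.40 in knockout cells, against 4.50, 4.77 and 4.81 in parental cells. At 24 h after 2 Gy it read 5.31, 5.58 and 5.30 in knockout cells, against 5.13, 4.82 and 4.73 in parental cells. No pair of groups overlapped, and the differences were 0.31, 0.90, 0.61 and 0.50 (SE 0.18).

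**Figure D2:**
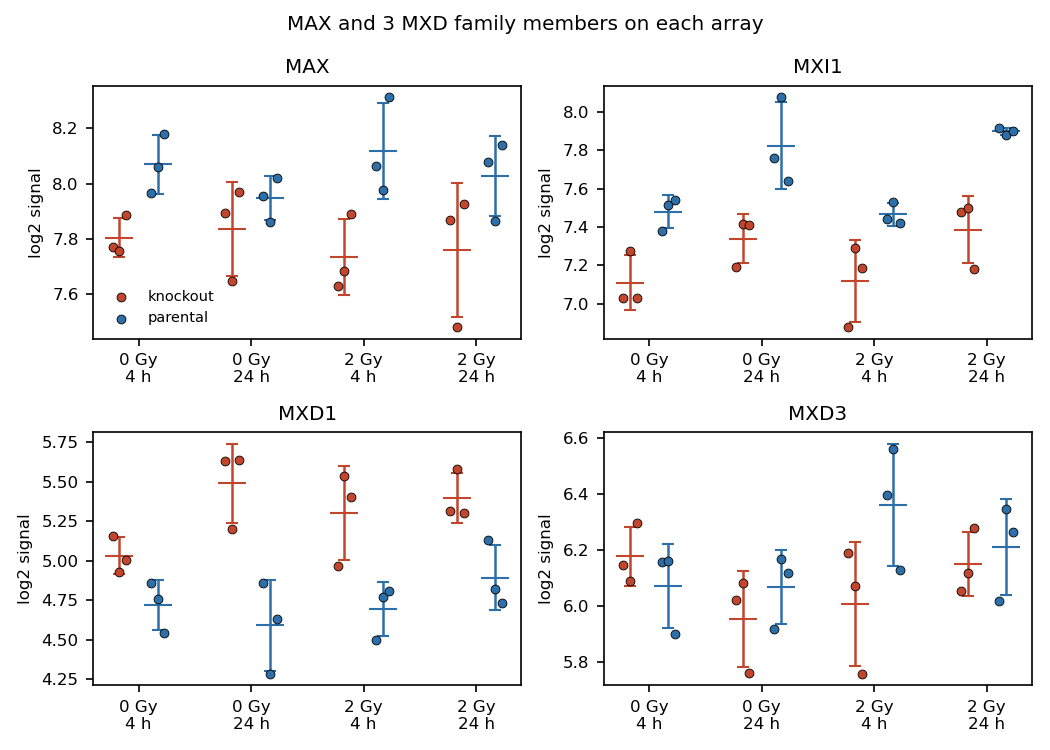
Log2 signal (vertical axes, each with its own range) of MAX, MXI1, MXD1 and MXD3 on each array by dose and time, with knockout arrays in red left of parental arrays in blue; bars show the mean and SD of 3 arrays. MXI1 is lower and MXD1 higher on the knockout arrays of every condition, while the MXD3 groups overlap in all 4.

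The remaining repressors and MLX differed little between the lines. MXD3, a repressor most abundant in dividing cells, lay between 5.76 and 6.29 in knockout cells, against 5.90 to 6.56 in parental cells, with differences of 0.11, -0.11, -0.35 and -0.06 (SE 0.14). MNT, the widely expressed MAX-bound repressor, lay between 5.61 and 6.07 in knockout cells, against 5.67 to 6.08 in parental cells, with differences of -0.08, -0.10, -0.03 and -0.04 (SE 0.12). MLX lay between 7.30 and 7.65 in knockout cells, against 7.21 to 7.62 in parental cells, with differences of 0.12, 0.05, 0.18 and 0.05 (SE 0.11). Across the 12 arrays of each line, the ranges of MXD3, MNT and MLX overlapped, although within a condition MNT at 0 Gy and 24 h and MLX at 2 Gy and 4 h did not.

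A call here means a limma p below 0.05 after Benjamini-Hochberg adjustment across the 17687 genes. MYC is left out of the counts between the lines, since it was chosen on them. Of the other 8 measured members, MXI1 was called at 0 Gy and 4 h, where 11.8% of all genes were. MXI1 and MXD1 were called at 0 Gy and 24 h (11.6% of all genes), MAX and MXD1 at 2 Gy and 4 h (12.0%), and MXI1 at 2 Gy and 24 h (12.0%). Called higher were 0, 1, 1 and 0 of the 8, against 6.27%, 6.47%, 6.87% and 6.29% of all genes, and called lower was 1 in each condition, against 5.5%, 5.09%, 5.13% and 5.68%. The groups did not overlap for 3, 4, 5 and 2 of the 8 in these conditions, against 26.1%, 26.6%, 24.2% and 25.7% of all genes. The calls of MXD1 at 0 Gy and 24 h and of MXI1 at 2 Gy and 24 h were also made under all 10 other settings and without any 1 of the 6 arrays compared. Other calls were lost with single arrays: MXI1 at 0 Gy and 4 h was no longer called without parental replicate 2 or 3 or knockout replicate 1 or 3, and MXI1 at 0 Gy and 24 h without parental replicate 2. At 2 Gy and 4 h MAX was no longer called without parental replicate 3 or knockout replicate 1 or 2, and MXD1 without parental replicate 1 or knockout replicate 2 or 3. With the replicate number as a block, MAX was also called at 0 Gy and 4 h and at 2 Gy and 24 h. MXI1 at 2 Gy and 4 h had a limma adjusted p of 0.0503. It was called under 4 of the 10 other settings, that block among them.

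**Figure D3:**
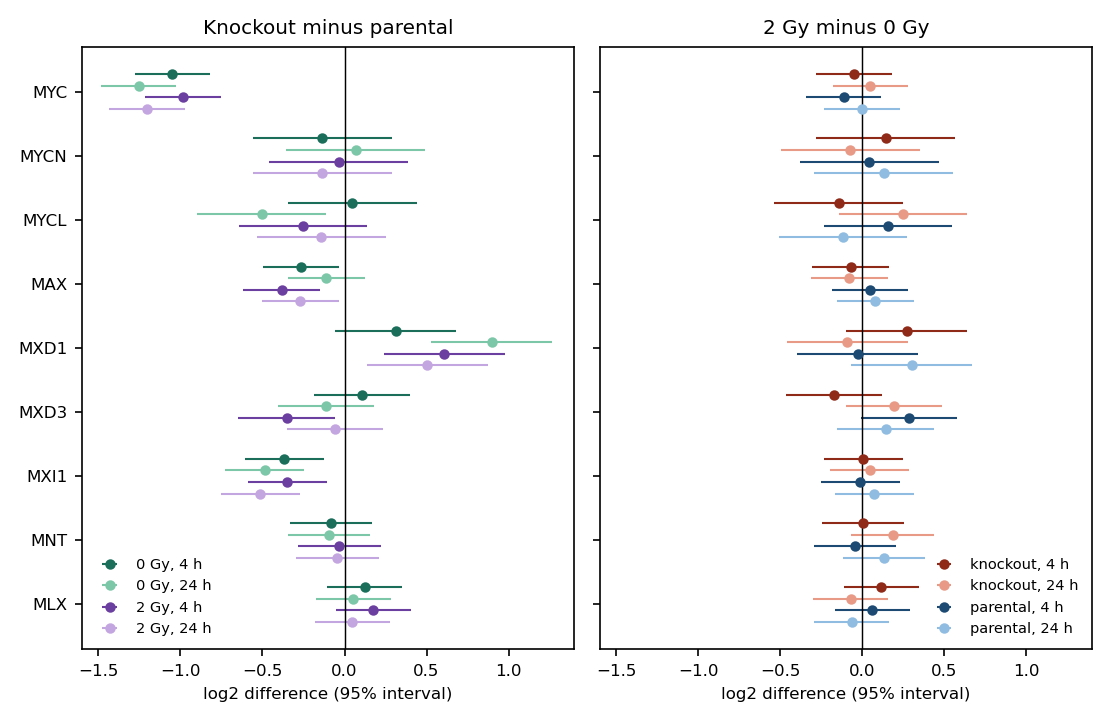
Log2 differences (horizontal axes) with 95% intervals from the limma fit for the 9 measured members (rows): knockout minus parental in 4 conditions on the left, 2 Gy minus 0 Gy in each line and time on the right. MYC stands near -1 in all 4 line comparisons, whereas the irradiation intervals all include 0.

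Irradiation left no called change in any member. MYC at 2 Gy minus 0 Gy was -0.05 (95% interval -0.28 to 0.18) in knockout cells at 4 h and 0.05 (-0.18 to 0.28) in knockout cells at 24 h. In parental cells it was -0.11 (-0.34 to 0.12) at 4 h and -0.0013 (-0.23 to 0.23) at 24 h, so a change of MYC as large as the gap between the lines lay outside all 4 intervals. None of the 9 members was called in knockout cells at 4 h or 24 h, where 0.0% of all genes were, nor in parental cells at 4 h (0.226%) or 24 h (0.0678%). In knockout cells 583 genes at 4 h and 736 genes at 24 h had an unadjusted p below 0.05 in limma, and a fit blocked on replicate number called 11 genes at 4 h and 0 at 24 h. Groups of 3 arrays did not overlap between doses for 1 of 9 members in knockout cells at 4 h (MLX, 0.12; 7.9% of all genes) and 24 h (MNT, 0.18; 9.71%), and in parental cells for 0 at 4 h (11.0%) and 1 at 24 h (MNT, 0.13; 12.3%). The irradiation difference with the lowest unadjusted p was that of MXD3 in parental cells at 4 h, 0.29 (-0.01 to 0.58; limma adjusted p 0.749). The intervals do not show that the members stayed level: the median interval of a response reached 0.31 log2 units to either side.

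The 2 lines were also compared for their responses. The difference between the MYC responses to 2 Gy, knockout minus parental, was 0.06 (SE 0.16) at 4 h and 0.05 (SE 0.16) at 24 h. That of MXD3 at 4 h was -0.46 (SE 0.20), from a response of -0.17 in knockout cells and 0.29 in parental cells, with a limma adjusted p of 1.0. None of the 9 members was called in these comparisons at 4 h or 24 h, nor in those of the time changes at 0 Gy or 2 Gy, and 0.0% of all genes were called in each. At an unadjusted p below 0.05 in limma, these comparisons held 461, 560, 619 and 628 genes.

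Over time, at 24 h against 4 h, MXI1 had the largest difference of the members in parental cells at both doses, without passing the threshold. The 24 h minus 4 h difference was 0.23 at 0 Gy and 0.27 at 2 Gy in knockout cells, and 0.34 at 0 Gy and 0.43 at 2 Gy in parental cells (SE 0.12 each), with limma adjusted p-values of 0.748, 0.564, 1.00 and 0.0926. The 24 h arrays were all above the 4 h arrays in parental cells at both doses and overlapped them in knockout cells. MYC in parental cells at 2 Gy was higher by 0.28 at 24 h (95% interval 0.05 to 0.51; limma adjusted p 0.400), and the groups did not overlap. Its other time differences were 0.17 in parental cells at 0 Gy, and -0.04 and 0.06 in knockout cells at 0 Gy and 2 Gy. MNT at 2 Gy was higher at 24 h by 0.27 in knockout cells and 0.28 in parental cells (limma adjusted p 0.576 and 0.461), also without overlap. MXD1 in knockout cells at 0 Gy was higher at 24 h by 0.46 (SE 0.18; limma adjusted p 0.635). None of the 9 members was called over time in knockout cells at 0 Gy (0.0% of all genes) or 2 Gy (0.0452%), or in parental cells at 0 Gy (0.0%) or 2 Gy (0.695%, with 0.645% higher and 0.0509% lower). Groups did not overlap over time for 2 of 9 members in knockout cells at 0 Gy (12.3% of all genes) and 2 at 2 Gy (13.1%), and for 1 in parental cells at 0 Gy (11.1%) and 3 at 2 Gy (12.1%). Of 108 tests of members over dose, time and line response, 9 had an unadjusted p below 0.05.

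The position of MYC on chromosome 8 was set against its neighbours, the 10 measured genes on each side in reference gene order whose mean signal was above background. Over both sides together, their median line difference was 0.04, -0.02, 0.06 and 0.03 in the 4 conditions, but the sides were unlike. Called higher were 6, 7, 8 and 7 of the 20, against 6.27%, 6.47%, 6.87% and 6.29% of all genes. Called lower were 2 in each condition, against 5.5%, 5.09%, 5.13% and 5.68% of all genes. In this order, without regard to distance, the 2 that were called lower stand near MYC, 1 on each side. They are LRATD2 (-1.20, -1.22, -1.26 and -1.31) and the noncoding LINC02912 (-2.27, -2.44, -1.92 and -2.34). POU5F1B, listed between LRATD2 and MYC, differed by -0.25, -0.03, 0.11 and -0.06. Farther out on the LRATD2 side, RNF139, which encodes a ubiquitin ligase, was higher by 1.51, 1.66, 1.53 and 1.42, and the actin regulator MTSS1 by 1.44, 1.33, 1.51 and 1.48. NDUFB9, SQLE, WASHC5 and NSMCE2 on that side were also higher in each condition, by 0.64 to 0.93, and ZNF572 by 0.26 to 0.68. TRIB1, listed between them and LRATD2, differed by 0.07, -0.02, -0.06 and -0.17. Of the genes nearest to MYC in this order, LRATD2 and LINC02912 were lower, while POU5F1B, TRIB1 and CYRIB were not called lower. Copy number was not measured, and its part in the MYC difference was not tested.

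MXI1 on chromosome 10 stood against its surroundings. The median line difference of its 20 neighbours was 0.38, 0.22, 0.39 and 0.31. Called higher were 10, 6, 9 and 5 of them, against 6.27%, 6.47%, 6.87% and 6.29% of all genes. Called lower were 0, against 5.5%, 5.09%, 5.13% and 5.68% of all genes. MXI1 was below all 20 in each condition. SMNDC1, listed next after MXI1, was higher by 0.40, 0.38, 0.26 and 0.10. DUSP5, a phosphatase of MAP kinases listed after SMNDC1, had the largest difference of the 20, 1.14, 1.00, 1.05 and 0.81. MXD1 on chromosome 2 was above 19, 20, 19 and 19 of its 20 neighbours, whose median was -0.01, -0.0041, -0.07 and -0.05. The neighbours of MAX on chromosome 14 had medians of 0.02, 0.01, 0.03 and 0.04.

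**Figure D4:**
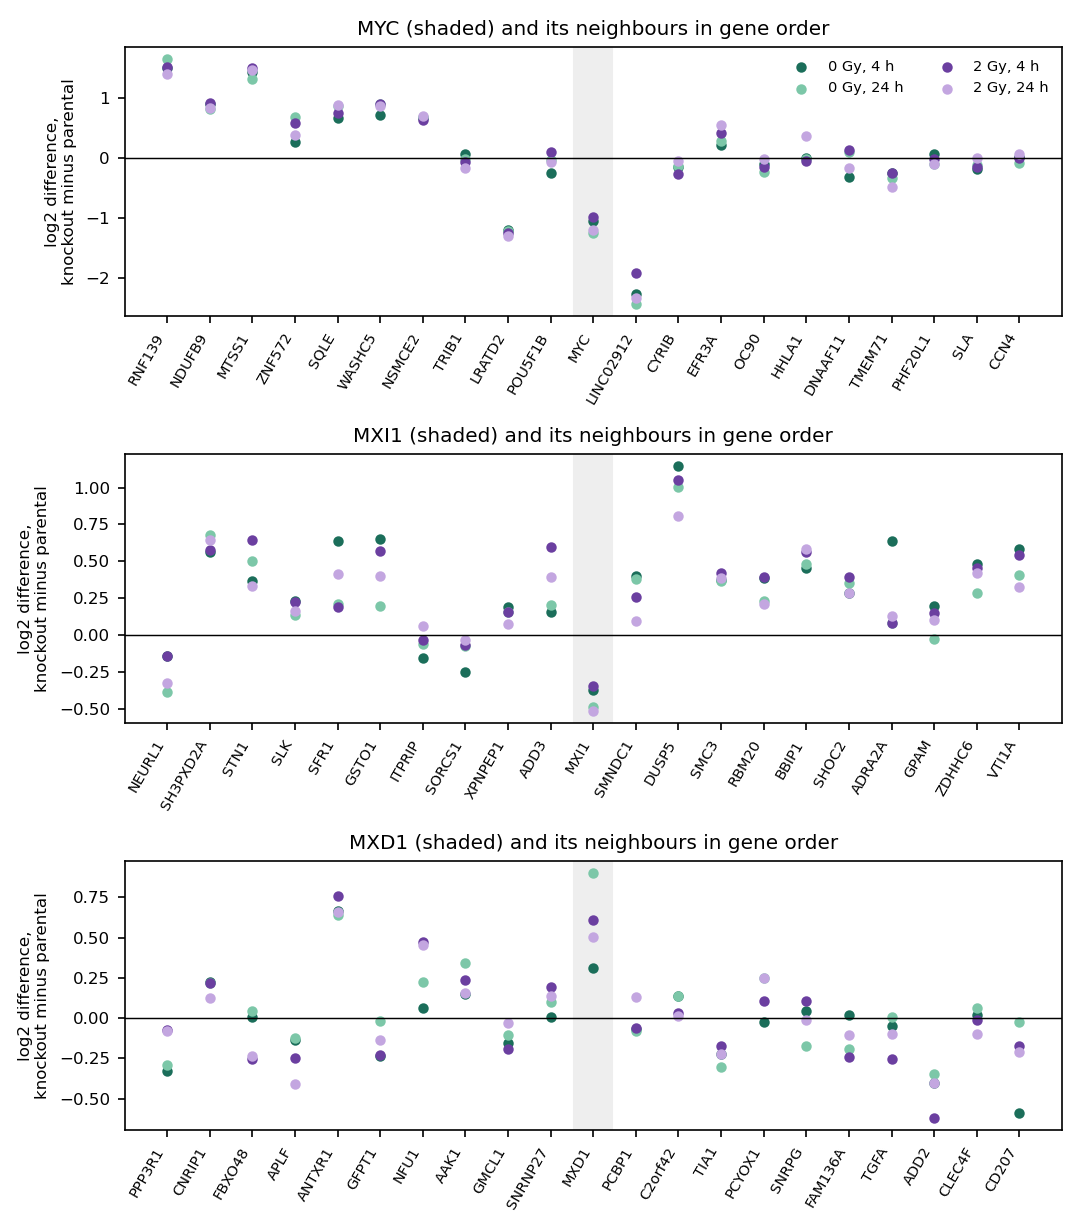
Knockout minus parental log2 difference (vertical axes, each with its own range) of MYC, MXI1 and MXD1, shaded, and of the 10 measured genes above background on each side in reference gene order (horizontal axes, not to distance), with 1 point per condition. LRATD2 and LINC02912 are low with MYC, the MXI1 neighbours are mostly above 0 while MXI1 is below it, and MXD1 is above most of its neighbours.

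Genes with a pattern like that of MYC over the 8 groups were sought among 11570 genes above background on every array, by the root mean square difference of centred group means. The closest were QRFPR (0.070), a peptide receptor, UGT8 (0.074), RNF24 (0.079), CNOT2 (0.080), a subunit of the mRNA deadenylase complex, and PWWP3B (0.082). Over the 24 arrays only CNOT2 remained among the closest 5, beside LRATD2, NELL2, ZNF644 and ADGRA2. CNOT2 averaged 7.02 ± 0.12 in knockout cells and 8.14 ± 0.08 in parental cells (SD, n = 12 each). The MYC pattern is mostly the gap between the lines, on which the set was chosen. Likeness to it therefore restates that difference, carries no test and is no support for the choice. Among the members above background on every array, which leaves out MYCN, MXI1 was the nearest to MYC, at rank 533. MXD1 was the farthest of them, at rank 11113.

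Genes around the network were read from 9 lists. These were chosen with earlier results of these data known, so their shares of called genes carry no test. The rest of the network, MGA, MLXIP and MLXIPL, had 0 of 3 genes called in any line comparison; MGA, a MAX partner that also carries a T-box domain, lay between 6.53 and 7.03 in knockout cells, against 6.60 to 7.22 in parental cells. The median over all 17687 genes was -0.02, -0.0035, -0.02 and -0.01 in the 4 conditions. Of 29 measured MYC targets in ribosome biogenesis, 2, 1, 1 and 0 were higher and 2, 4, 2 and 6 lower, with medians of 0.01, -0.08, -0.04 and -0.10. The share called in either direction was 13.8%, 17.2%, 10.3% and 20.7%, against 11.8%, 11.6%, 12.0% and 12.0% of all genes. Only LYAR, a nucleolar protein outside the rule for named genes, was lower in all 4 (mean difference -0.48). Of 24 measured targets in translation and the cell cycle, 0 were higher in any condition, against 6.27%, 6.47%, 6.87% and 6.29% of all genes. Lower were 6, 5, 3 and 6, against 5.5%, 5.09%, 5.13% and 5.68% of all genes. The medians of this list were 0.0016, -0.08, -0.03 and 0.0075.

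Of 32 measured metabolic MYC targets, 3, 2, 1 and 1 were called higher and 7, 6, 7 and 7 lower (31.3%, 25%, 25% and 25% in all, against 11.8%, 11.6%, 12.0% and 12.0% of all genes), with medians of -0.04, -0.12, -0.07 and -0.12. In all 4 conditions 6 of them were lower, against 2.84% of all genes, and 1 was higher, against 3.54%. As the list was chosen with earlier results of these data known, these shares carry no test. SLC7A5 and SLC3A2 encode the light and heavy chains of the transporter for large neutral amino acids. SLC7A5 lay between 8.61 and 9.41 (median 9.08) in knockout cells, against 9.87 to 10.34 (median 10.09) in parental cells, and its difference was between -0.93 and -1.09 (limma adjusted p at most 8.56e-06). SLC3A2 lay between 9.29 and 9.79 (median 9.43) in knockout cells, against 9.87 to 10.33 (median 10.12) in parental cells, and its difference was between -0.46 and -0.79. PFKM, the muscle form of phosphofructokinase in glycolysis, fell by 0.48 to 0.63, and SHMT2, PRPS2 and PHB1 were the other genes lower in all 4. TYMS, which makes thymidylate, was the gene higher in all 4, by 0.32 to 0.46 (limma adjusted p at most 0.0014). The arrays of the 2 lines did not overlap for SLC7A5, SLC3A2, PFKM or TYMS.

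Among cell cycle targets CCND2, which encodes cyclin D2, lay between 6.45 and 7.71 (median 7.17) in knockout cells, against 8.43 to 9.37 (median 8.83) in parental cells. Its difference was between -1.51 and -1.89 (limma adjusted p at most 2.29e-07). CDK4, the kinase that pairs with D-type cyclins, differed by -0.20 to -0.32; it was called in all 4 conditions, and its call at 0 Gy and 4 h (limma adjusted p 0.0414) was lost without any 1 of the 6 arrays compared, and at 2 Gy and 4 h without parental replicate 1. CDK4 and PFKM lie on chromosome 12, where the medians of their 20 neighbours over the 4 conditions were -0.29 and -0.26. For CCND2, on the same chromosome, the neighbours' median was -0.03, for SLC7A5 it was -0.04 and for SLC3A2 0.08. The CDK4 difference was of the size seen around it, and the CCND2, SLC7A5 and SLC3A2 signals stood apart from their neighbours.

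Of 15 measured genes that MYC represses, 2, 3, 3 and 2 were called higher, against 6.27%, 6.47%, 6.87% and 6.29% of all genes. Called lower were 0, 0, 1 and 2, against 5.5%, 5.09%, 5.13% and 5.68% of all genes. The medians of this list were -0.0050, -0.06, -0.06 and -0.03. TGFBR2, a receptor for TGF-beta, had a median of 6.28 in knockout cells, all of whose arrays lay above the parental ones, against 4.26 to 5.11 (median 4.70) in parental cells, and was higher by 1.35 to 1.71. Its neighbours on chromosome 3 had a median of 0.54, and 10 of 20 were called higher in all 4, against 3.54% of all genes. CDKN1A, the cell cycle inhibitor p21, was also called higher in all 4 (mean difference 0.96), although its groups overlapped in at least 1 condition; it falls outside the rule for named genes. The rest of this list was not called in all 4.

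Of 19 measured cofactors, 1, 0, 1 and 0 were higher and 2, 3, 2 and 3 lower, which was 15.8% in each condition, against 11.8%, 11.6%, 12.0% and 12.0% of all genes. Their medians were 0.02, -0.05, 0.02 and -0.05. CCNT1, cyclin T1 of the elongation kinase P-TEFb, differed by -0.49 to -0.62, with a median of -0.27 among its neighbours on chromosome 12. DNMT3A, a DNA methyltransferase that can bind MYC, differed by -0.33 to -0.52, and lost its call at 0 Gy and 24 h without parental replicate 1 or knockout replicate 3. Of 20 measured regulators of MYC protein stability, 2, 2, 4 and 2 were higher and 1 in each condition lower, or 15.0%, 15.0%, 25% and 15.0% in all against the same shares of all genes, with medians of 0.0044, 0.10, 0.05 and -0.02. USP28, a deubiquitinase that stabilises MYC, was higher by 0.62 to 0.79, between 7.01 and 7.56 in knockout cells, against 6.11 to 6.93 in parental cells. BTRC, an F-box protein of a ubiquitin ligase, was higher by 0.39 to 0.59, with a neighbour median of 0.23 on chromosome 10; at 0 Gy and 24 h its call was lost without parental replicate 3, and at 2 Gy and 4 h without parental replicate 2 or knockout replicate 3. SENP1, a SUMO protease, differed by -0.27 to -0.30 and lost its call in each condition when 1 of several single arrays was left out. Its neighbours on chromosome 12 had a median of -0.25.

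Of 18 measured regulators of MYC transcription and mRNA, 1, 2, 2 and 2 were higher and 1, 1, 2 and 0 lower. This was 11.1%, 16.7%, 22.2% and 11.1% in all, against 11.8%, 11.6%, 12.0% and 12.0% of all genes. The medians were -0.03, -0.05, -0.0089 and -0.03. STAT3, a transcription factor downstream of cytokine receptors, was higher by 0.36 to 0.59, but not called at 0 Gy and 24 h without parental replicate 1 or knockout replicate 1 or 2. Of the 7 glucose-sensing targets of MLX with MLXIP or MLXIPL, 1, 1, 1 and 0 were higher, against 6.27%, 6.47%, 6.87% and 6.29% of all genes. Lower were 0, 1, 0 and 2 of the 7, against 5.5%, 5.09%, 5.13% and 5.68%. Their medians were -0.28, -0.29, -0.21 and -0.33, and none was called in all 4.

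**Figure D5:**
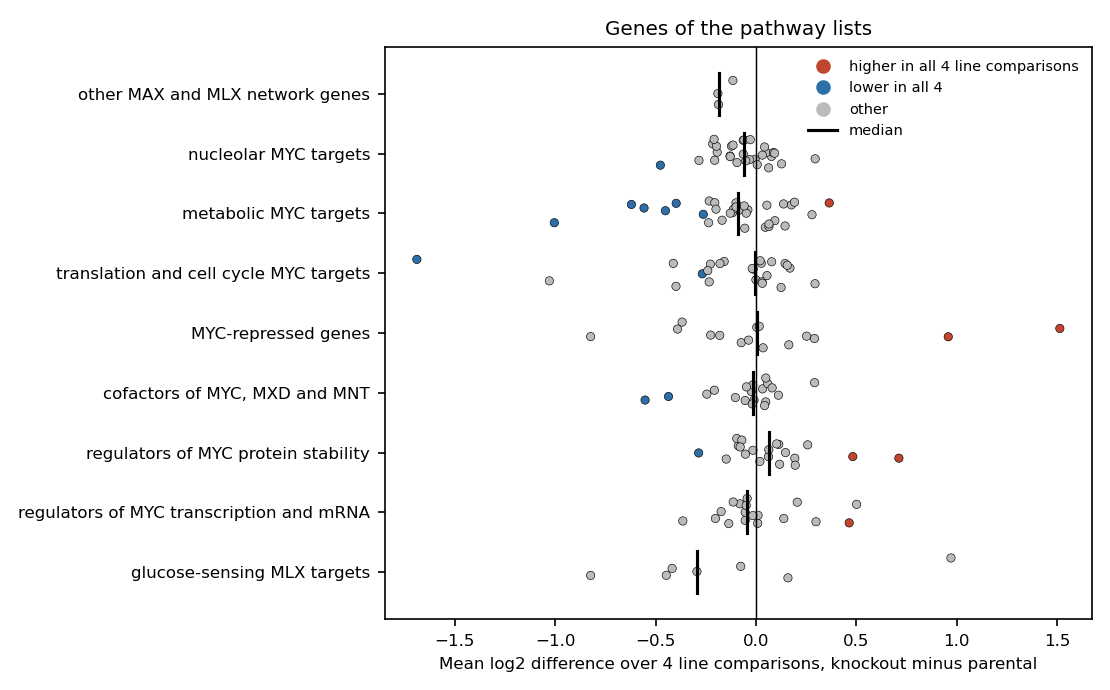
Mean knockout minus parental log2 difference over the 4 conditions (horizontal axis) for each measured gene of the 9 lists (rows), with the median of each list as a black line; genes called higher in all 4 comparisons are red, those called lower in all 4 are blue. CCND2 (-1.69) and SLC7A5 are the farthest blue points and TGFBR2 (1.51) the farthest red one, while most genes of every list lie near 0.

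CACGTG was found in the promoter windows of 10 of 23 ribosome biogenesis genes, 11 of 29 metabolic targets and 7 of 19 translation and cell cycle targets that had a window, against 1 of 10 MYC-repressed genes. Of the measured genes called lower in all 4 line comparisons, 63 of 386 (16.3%) held it, against 50 of 502 (9.96%) of those called higher and 10.8% of all measured genes; this search was added after the values were seen and carries no test. Of the 13 named list genes 11 had a window, and CCND2 and BTRC were not searched. Among the 11, SLC7A5, CDK4, CCNT1, DNMT3A and USP28 held it. CCNT1 and DNMT3A held it in some of their windows and not in others. Stretches from all of these genes but DNMT3A are shown because the genes differed between the lines in both directions. Each stretch is read on the minus strand of GRCh38.p14, with CACGTG in capitals. They lie at chr16:87869615-87869654 for SLC7A5 (motif from 130 bases before the start), chr12:48716919-48716957 for CCNT1 (234 bases before) and chr11:113875724-113875763 for USP28 (174 bases before). The whole CDK4 window, chr12:57752261-57752560, is given because it held 3 motifs, from 216, 196 and 101 bases before the start.
SLC7A5: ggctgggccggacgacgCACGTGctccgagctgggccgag
CCNT1: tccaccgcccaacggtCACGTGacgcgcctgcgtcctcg
USP28: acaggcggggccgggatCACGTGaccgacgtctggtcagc
CDK4: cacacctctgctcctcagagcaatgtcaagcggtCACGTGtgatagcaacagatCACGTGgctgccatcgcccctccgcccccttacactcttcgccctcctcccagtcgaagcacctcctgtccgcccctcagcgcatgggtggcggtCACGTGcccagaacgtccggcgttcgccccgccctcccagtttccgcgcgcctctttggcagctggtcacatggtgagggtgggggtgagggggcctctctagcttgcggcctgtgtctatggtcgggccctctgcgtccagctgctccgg
SLC7A5, CCNT1, CDK4 and DNMT3A were lower and USP28 higher in knockout cells, and the motif was found beside differences of both signs.

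After irradiation, the list genes called were AURKA and PLK1, mitotic kinases that also stabilise MYC family proteins. In parental cells at 4 h AURKA averaged 8.29 ± 0.14 at 2 Gy and 9.01 ± 0.14 at 0 Gy (SD, n = 3 each), a difference of -0.72 (limma adjusted p 1.54e-05). PLK1 averaged 10.06 ± 0.05 at 2 Gy and 10.64 ± 0.15 at 0 Gy (SD, n = 3 each), a difference of -0.57 (limma adjusted p 1.54e-05). Both were higher at 24 h than at 4 h in parental cells at 2 Gy, by 0.91 and 0.63. In knockout cells at 4 h the 2 Gy minus 0 Gy difference was -0.45 (SE 0.085) for AURKA and -0.26 (SE 0.069) for PLK1, with limma adjusted p-values of 0.105 and 0.526. With the replicate number as a block, these were 0.00431 and 0.150, so that AURKA was called. The difference between the responses of the lines at 4 h was 0.28 (SE 0.12) for AURKA and 0.31 (SE 0.10) for PLK1, with a limma adjusted p of 1.0 for each, so a difference between the lines was not shown. AURKA in knockout cells at 2 Gy was higher at 24 h by 0.43 (limma adjusted p 0.0368) and TYMS in parental cells at 2 Gy differed by -0.31 at 24 h (limma adjusted p 0.0243); the AURKA call was lost without any 1 of the 6 arrays compared, and the TYMS call without any 1 of 5 of them.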

How the data were processed

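The deposited table holds log2 signals of 24351 probe sets on 24 arrays, without missing values; per the submitters' processing notes the authors used RMA and Affymetrix Expression Console 1.1, and the genome build of the array and which arrays were normalized together are not given in the sources used here. RMA sets the arrays to a common distribution, so a change shared by all genes cannot be seen. The number of arrays limits the precision. The platform annotation gave 1 symbol to 17709 probe sets and several to 0. For the 20 genes with several probe sets the one with the highest mean was kept, which left 17687 genes, and no filter on low signals was applied.

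From these values, differences were fitted in R 4.3.3 with limma 3.58.1 (lmFit with 1 mean per group over all 24 arrays, eBayes with an intensity trend), with Benjamini-Hochberg adjustment over 17687 genes and a threshold of 0.05, after a test on simulated data. The 16 comparisons are between lines (4), doses (4) and times (4), and between the lines in their dose (2) and time (2) changes. Comparisons that share a group share its arrays. Members and lists were chosen with earlier results of these data known. The genes named are SLFN11, all members, list genes called and not overlapping in all 4 line comparisons (at most 3 each way per list, by mean difference), list genes called in any other comparison, and the 5 genes most like MYC. Neighbours and names follow RefSeq gene order in GRCh38.p14, of which no coordinates are used beyond the promoter windows, and neighbours were limited to genes with a mean above the background level. Of 236 list entries, 200 were measured.

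Replicate numbers come from the titles. Deviations from group means of same-numbered arrays correlated above 0.1 for all 3 pairs between the lines at 0 Gy and 4 h (0.10 to 0.17) and at 2 Gy and 24 h (0.15 to 0.23), and between doses in knockout cells at 4 h (0.15 to 0.27) and 24 h (0.13 to 0.24), so there a fit with the number as a block is given beside results it changes. Alternatives were that block, only the arrays compared, no intensity trend, array weights, median centring, quantile normalization, a filter on dim genes, the mean of probe sets, leaving out both arrays of narrow signal range, and leaving out each array; the block on only the arrays compared, all settings for single list genes beyond the block, centring and filter, and the promoter search were added after the data were seen.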

Additional observations from a re-analysis of the deposited data

How the results depend on the processing

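The MYC line difference was negative under all alternatives run. It ran from -1.08 to -1.02 at 0 Gy and 4 h and from -1.27 to -1.24 at 0 Gy and 24 h. At 2 Gy it ran from -0.99 to -0.86 at 4 h and from -1.22 to -1.16 at 24 h. With single arrays left out it ran from -1.18 to -0.95, -1.30 to -1.20, -1.12 to -0.87 and -1.34 to -1.13 in the same order. Leaving out 1 of 3 arrays cannot move a group mean by as much as its SD, so these ranges carry no test. For the line comparisons MYC is left out of the calls below, since the choice of genes fixes its place there. In the main fit 11.8%, 11.6%, 12.0% and 12.0% of all genes were called between the lines. Over time in parental cells at 2 Gy it was 0.695%. Shares of all genes under each other setting are not set beside these calls, which are therefore no result about the members. At 0 Gy and 4 h MXI1 was not called without the intensity trend or under median centring. There MAX was called with the replicate block, over all arrays and on only the arrays compared. The calls lost with an array left out are given above. At 2 Gy and 24 h MAX and MXD1 were called beside MXI1 with array weights and with the replicate block on only the arrays compared. MXD1 was called there with quantile normalization too. In parental cells at 2 Gy, the main fit called 0 members for 24 h minus 4 h. MXI1 was called there with the replicate block and with array weights. With the replicate block on only the arrays compared, MXI1 and MYC were called. Same-numbered arrays correlated there from 0.09 to 0.48, so not all 3 pairs were above 0.1. What they share beyond a number is not stated. The cause was not tested. At 0 Gy and 24 h MYCL was called too with the replicate block and with array weights. At 2 Gy and 4 h MAX was not called without the intensity trend, nor MXD1 on only the arrays compared. MXI1 was called there with the replicate block, over all arrays and on only those compared, with quantile normalization and with the filter on dim genes. Without parental replicate 3 MXD3 was called there, and MXI1 without knockout replicate 2. MXD1 was called at 2 Gy and 24 h without parental replicate 1. In the other irradiation, time and response comparisons the count of called members was 0 under every alternative.

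Counts over all genes moved more. For 2 Gy minus 0 Gy in parental cells the 40 genes at 4 h ranged from 24 to 78 (22 to 44 with an array left out) and the 12 at 24 h from 4 to 86 (3 to 7). In knockout cells the 0 genes ranged up to 18 at 4 h and 42 at 24 h. Over time they ranged from 0 to 68 (knockout, 0 Gy; 0 in the main account), 0 to 92 (knockout, 2 Gy; 8) and 50 to 431 (parental, 2 Gy; 123). With 25 neighbours on each side in place of 10, the medians around MYC were 0.07, 0.15, 0.16 and 0.24, and those around MXI1 0.24, 0.28, 0.29 and 0.23. Among these 50 neighbours, those above MXD1 numbered 10, 2, 4 and 5, and those below MXI1 numbered 1, 1, 2 and 2. The differences between the responses, with 0 genes called, reached at most 6. MYCN lies near background, which limits what its signal can show.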

Other observations

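The Ewing sarcoma markers, read as a check of the cell type, differed between the lines in both directions. Of 9 measured, 3 were called higher and 2 lower in all 4 line comparisons, against 3.54% and 2.84% of all genes. PRKCB, a protein kinase C that is a target of the EWSR1 fusion, lay between 7.99 and 8.71 (median 8.40) in knockout cells, against 6.97 to 7.65 (median 7.37) in parental cells, and differed by 0.84 to 1.11. LIPI, a lipase found in Ewing sarcoma, differed by 0.62 to 1.03, and its call at 0 Gy and 4 h was lost without knockout replicate 1. CD99, the surface protein used in diagnosis, differed by 0.20 to 0.40, and lost its call at 2 Gy and 24 h without any 1 of the 6 arrays compared and at 2 Gy and 4 h without parental replicate 1 or knockout replicate 1 or 2. GLI1, the Hedgehog transcription factor, lay between 4.93 and 5.44 in knockout cells, against 5.71 to 6.51 in parental cells, and differed by -0.71 to -1.05; its neighbours on chromosome 12 had a median of -0.29, and its call at 2 Gy and 24 h was lost without parental replicate 3. STEAP1, a membrane protein, differed by -0.48 to -0.65, and lost its call at 2 Gy and 4 h without parental replicate 3 or knockout replicate 2.

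NPY1R, a neuropeptide Y receptor, was the marker called over time: in parental cells at 2 Gy it averaged 7.85 ± 0.16 at 24 h and 7.22 ± 0.05 at 4 h (SD, n = 3 each; limma adjusted p 0.0313), a call lost without any 1 of the 3 parental arrays at 4 h or without replicate 1 or 2 at 24 h. Among markers of other cell types, KRT18 was called lower at 2 Gy and 24 h, LCP1 at 0 Gy and 4 h and ROBO4 at 2 Gy and 4 h, and 0 epithelial, blood or endothelial markers were called in all 4 line comparisons.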
